A study of Caenorhabditis elegans with 8 samples.

Results

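The epidermis of *C. elegans* makes small secreted peptides against microbes, and 9 genes of this kind were followed here together with *npr-12*, the gene of a neuropeptide receptor. They are *nlp-27*, *nlp-28*, *nlp-29*, *nlp-30*, *nlp-31* and *nlp-34* of the neuropeptide-like group and *cnc-1*, *cnc-2* and *cnc-4* of the caenacin group. These 10 genes, out of 19794 that the array measures, were chosen by name, and their probes were found by the sequence name or RefSeq transcript that the array design gives. They have 31 of the 43603 probes on the array. RNA came from whole pretzel-stage embryos, embryos near hatching, coiled up within the egg, with 4 samples of the wild type N2 and 4 samples of *aptf-1(gk794)*, a mutant of the AP2 transcription factor that the sleep neuron RIS needs to induce sleep. According to the labels, animals of both genotypes were hermaphrodites grown at 21.5°C (the study's general methods give a higher temperature) on plates with *E. coli* OP50, with no infection or treatment of the animals named in the labels, and each sample pooled about 3000 hand-picked embryos. The mutation is present in the whole animal, and each sample was hybridised to 1 array in 1 colour.

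Antimicrobial peptides are part of innate immunity. In *C. elegans*, infection of the cuticle by a fungus or a wound raises the *nlp* peptide genes through a p38 MAP kinase pathway that acts inside epidermal cells, whereas *cnc-2* responds mainly to the TGF-β ligand DBL-1, which neurons secrete. The peptides also link the skin to the nervous system: NLP-29 acts through NPR-12 on neurons, and in larvae and adults this signal has been tied to dendrite degeneration and to sleep after injury, in which RIS takes part. The study compared *aptf-1* mutants with the wild type to find transcripts that depend on APTF-1. Here the same comparison is read for the peptide genes and the receptor gene.

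All values are log2 intensities relative to the 75th percentile of their array, so that 0 is the signal of a spot at that percentile. Signals of different probes are not compared with each other, since probes bind with different strength. The 75th percentile lay between 2283 and 3713 intensity units over the 8 arrays, the share of probes well above background was 79.4% to 83.1%, no spot was saturated, and the number of arrays limits the precision. The labels were checked with *aptf-1* itself, whose log2 fold change, mutant minus wild type, came to -2.06 (standard error, SE, 0.14, limma adjusted p = 0.00187), with no overlap between the genotypes. Of the genes that mark epidermis, *lin-26*, *elt-1*, *elt-3*, *nhr-25*, *dpy-7*, *ajm-1* and *che-14* were well above background on all 8 arrays. The cuticle collagen *bli-1*, which belongs to later stages, was not well above background on any. Of the 2 probes of the adult collagen *col-19*, 1 was dim but marked as well above background on all 8. The other was left out of the test below. A whole-animal sample cannot tell fewer cells of a type from less RNA per cell.

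Neither the antimicrobial peptide genes nor *npr-12* passed the test between the genotypes. To be called, a probe had to change at least 1.5-fold with a limma p below 0.05 after Benjamini-Hochberg adjustment over all probes. Of the 31 probes, 30 had signal well above background on all 8 arrays and were tested, and 0 were called (limma), against 0.0504% of the 35729 tested probes. The remaining probe is that of *cnc-1*. Taken per gene, as the mean over the tested probes, 0 of 9 genes were called, against 0.041% of the 17063 tested genes. Before adjustment, 3 of the 9 genes had a p under 0.05 in limma, all with a lower signal in the mutant, against 3.23% of all tested genes in either direction and 2.4% in this one. These 3 were *nlp-28*, *nlp-27* and *nlp-29*, neighbours on chromosome V. Per probe, 14 of 30 had such a p, against 2.98% of all probes in either direction and 2.09% for a lower mutant signal, and in 11 of 30 the genotypes did not overlap, against 2.18%. Probes of 1 gene share its RNA, and *nlp-28* alone has 12 of the 30. All 9 tested genes had a log2 fold change below 0, from -0.95 to -0.04 with a median of -0.33. Over all tested genes 55.6% lay below 0 and the median was -0.02. Among the probes 29 of 30 lay below 0, against 53.7% of all. These genes were chosen with earlier results of the arrays known, and the counts are a description.

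**Figure D1:**
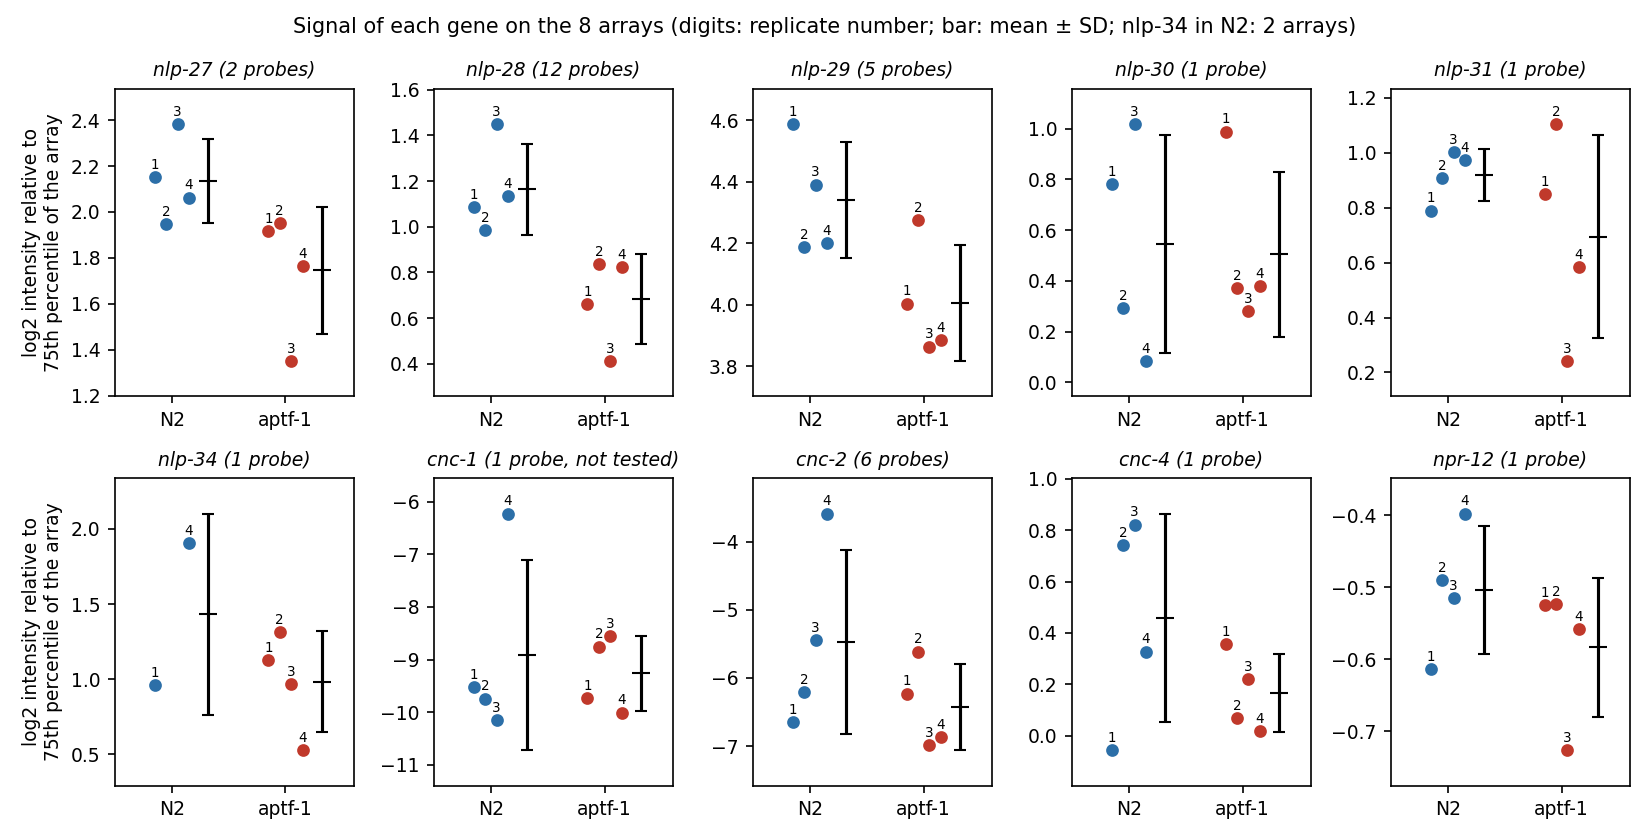
Log2 intensity relative to the 75th percentile of the array (y axis) for each of the 10 genes in N2 (blue) and *aptf-1(gk794)* (red), with 1 point per array, its replicate number above it, and a bar for the mean and SD; *nlp-34* has 2 N2 arrays because the scanner software marked the other spots as outliers. The groups of *nlp-28* do not overlap, and N2 replicate 4 stands high for *cnc-1* and *cnc-2*.

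The genes of the *nlp-29* cluster lie side by side on chromosome V, in the order *nlp-34*, *nlp-31*, *nlp-30*, *nlp-29*, *nlp-28* and *nlp-27* with no other protein-coding gene between them in the WBcel235 annotation. *nlp-28* has 12 probes and was the gene of the cluster whose genotypes were separated. Its mean over the probes was 1.09, 0.99, 1.45 and 1.13 in N2 replicates 1 to 4 and 0.66, 0.84, 0.41 and 0.82 in *aptf-1* replicates 1 to 4. No mutant array reached the lowest wild-type array, which holds for 2.17% of all tested genes in either direction and 1.41% in this direction. The group means were 1.16 ± 0.20 (SD, n = 4) in N2 and 0.68 ± 0.20 (SD, n = 4) in the mutant. Their difference was -0.48 on the log2 scale (SE 0.14, 95% interval -0.79 to -0.17), so the mutant signal was 0.717 of that of the wild type. The adjusted p from limma was 0.9997, the unadjusted p from limma was 0.00722, and the two-sided exact permutation test, with 70 ways to assign the arrays, gave p = 0.0286, the smallest that 4 arrays against 4 allow. The difference was thus larger than the spread between replicates and did not pass the adjustment over all genes.

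The 12 probes named for *nlp-28* did not behave alike. Of these, 10 had log2 fold changes from -0.65 to -0.51, and in 9 of the 10 the genotypes did not overlap. The probe A_12_P165864 had a log2 fold change of 0.22 (SE 0.19), with overlapping groups. The probe A_12_P100104 had -0.30 (SE 0.15). Over the 8 arrays, as deviations from the mean of each genotype, the latter had a Pearson correlation of 0.86 with the mean of the *nlp-29* probes and of 0.39 with the 10 concordant probes of *nlp-28*. The 10 concordant probes had correlations of 0.13 to 0.44 with the *nlp-29* mean. Each had a correlation of 0.90 to 0.99 with the mean of the other concordant probes. The peptide genes of this cluster are related copies, and how far a probe binds the transcript of a neighbour was not tested. Without these 2 probes, which were set apart after the values were seen, the log2 fold change of *nlp-28* was -0.57 (SE 0.15, limma adjusted p = 0.9997).

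*nlp-29*, the gene of the cluster that is used most as a reporter of epidermal infection and injury, has 5 probes. Its signal was 4.59, 4.19, 4.39 and 4.20 in N2 replicates 1 to 4 and 4.00, 4.27, 3.86 and 3.88 in *aptf-1* replicates 1 to 4. *aptf-1* replicate 2 was higher than 2 of the wild-type arrays, and the other 3 mutant arrays lay below all of them. Mutant and wild type differed by -0.33 on the log2 scale (SE 0.13, 95% interval -0.64 to -0.03, limma adjusted p = 0.9997), and the two-sided exact permutation test gave p = 0.0857. All 5 probes had lower means in the mutant, from -0.39 to -0.25 on the log2 scale, and in 1 of them the groups did not overlap.

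*nlp-27*, at the end of the cluster, has 2 probes. Its values were 2.15, 1.95, 2.38 and 2.06 in N2 replicates 1 to 4 and 1.92, 1.95, 1.35 and 1.76 in *aptf-1* replicates 1 to 4. The groups overlapped only at N2 replicate 2 and *aptf-1* replicate 2, and *aptf-1* replicate 3 was the lowest. The genotypes differed by -0.39 on the log2 scale (SE 0.16, 95% interval -0.74 to -0.04, limma adjusted p = 0.9997), with p = 0.0571 in the two-sided exact permutation test. Without *aptf-1* replicate 3 it came to -0.26 (limma adjusted p = 0.9998).

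The other 3 genes of the cluster have 1 probe each, and their groups overlapped. *nlp-31* encodes a peptide with activity against fungi in vitro. It gave 0.79, 0.91, 1.00 and 0.97 in N2 replicates 1 to 4 and 0.85, 1.10, 0.24 and 0.58 in *aptf-1* replicates 1 to 4. The wild-type arrays lay close together (SD 0.095, n = 4), the mutant arrays were spread on both sides of them (SD 0.37, n = 4), and the log2 fold change was -0.22 (95% interval -0.62 to 0.17). Without *aptf-1* replicate 3 it was -0.07 and without *aptf-1* replicate 2 it was -0.36. *nlp-30* gave 0.78, 0.29, 1.02 and 0.08 in N2 replicates 1 to 4 and 0.99, 0.37, 0.28 and 0.38 in *aptf-1* replicates 1 to 4. Here the arrays of each genotype differed more than the genotypes did, with a log2 fold change of -0.04 (95% interval -0.58 to 0.50). For *nlp-34*, at the other end of the cluster, the spots of N2 replicates 2 and 3 were marked as outliers and left out. The remaining wild-type values were 0.96 and 1.90, and *aptf-1* replicates 1 to 4 gave 1.13, 1.31, 0.97 and 0.53. The difference of -0.45 (95% interval -1.20 to 0.30) came from 2 wild-type and 4 mutant arrays and rested on N2 replicate 4: without that array 1 wild-type value was left and the log2 fold change was 0.025. With the marked spots kept, at 1.46 and 1.63, it was -0.51 (limma adjusted p = 0.9997).

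**Figure D2:**
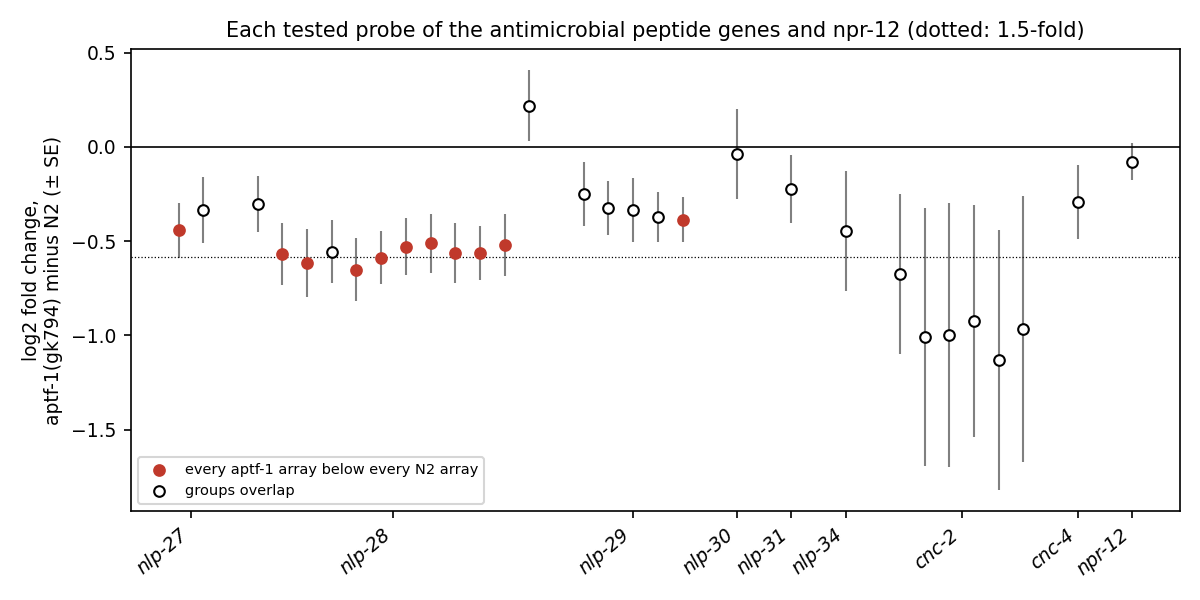
Log2 fold change of *aptf-1(gk794)* minus N2 (y axis, with standard error) for each of the 30 tested probes, grouped by gene; filled points are probes whose mutant arrays all lay below the wild-type arrays. Filled points number 11, of which 9 belong to *nlp-28*, and A_12_P165864 of *nlp-28* is the only point above 0.

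The caenacin genes *cnc-1*, *cnc-4* and *cnc-2* also lie in a cluster on chromosome V, in the order *cnc-11*, *cnc-1*, *cnc-5*, *cnc-4*, *cnc-3* and *cnc-2*. *cnc-2*, the target of DBL-1 signalling in the epidermis, has 6 probes, all dim but marked as well above background on every array. Its mean was -6.65, -6.21, -5.44 and -3.59 in N2 replicates 1 to 4 and -6.23, -5.62, -6.99 and -6.87 in *aptf-1* replicates 1 to 4. N2 replicate 4 stood above all other arrays, and the rest of the wild-type arrays lay within the range of the mutant arrays or close to it. The log2 fold change was -0.95 (SE 0.63, 95% interval -2.38 to 0.48, limma adjusted p = 0.9997), and all 6 probes had lower means in the mutant, from -1.13 to -0.67. Without N2 replicate 4 it was -0.32 (SE 0.39). With all arrays and normexp in place of the scanner's background correction it was -0.48. The SD within genotypes, pooled over both, was 1.06, which is above that of 98.9% of the tested genes.

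*cnc-1* showed the same array standing apart. Its only probe was well above background on N2 replicate 4 alone, at -6.23, while N2 replicates 1 to 3 gave -9.53, -9.75 and -10.15 and *aptf-1* replicates 1 to 4 gave -9.73, -8.75, -8.55 and -10.01. The background-subtracted intensity was 36 units on N2 replicate 4 and between 3 and 9 on the other arrays. *cnc-1* was not tested, since fewer than 4 arrays were well above background, and it was not detectable in the mutant at this signal. No fold is given because the wild-type mean of -8.91 lay below the limit of -8.05 that the mutant arrays set.

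*cnc-4*, which has 1 probe, did not share this pattern. It gave -0.06, 0.74, 0.82 and 0.33 in N2 replicates 1 to 4 and 0.36, 0.07, 0.22 and 0.02 in *aptf-1* replicates 1 to 4. N2 replicates 2 and 3 were above every mutant array and N2 replicate 1 was below every mutant array. The mutant mean was lower by a log2 fold change of -0.29 (SE 0.19, 95% interval -0.74 to 0.15, limma adjusted p = 0.9997), with p = 0.286 in the two-sided exact permutation test. Without N2 replicate 1 it was -0.46 and without N2 replicate 3 it was -0.17, and array weights in limma gave -0.59 (adjusted p = 0.249).

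*npr-12*, the receptor gene on chromosome IV, differed least between arrays. Its only probe gave -0.61, -0.49, -0.52 and -0.40 in N2 replicates 1 to 4 and -0.52, -0.52, -0.73 and -0.56 in *aptf-1* replicates 1 to 4. The groups overlapped, with the highest value in N2 and the lowest in the mutant. Its difference of -0.08 (SE 0.09, 95% interval -0.29 to 0.13, limma adjusted p = 0.9997) was within the spread of the arrays, and the two-sided exact permutation test gave p = 0.314. The interval leaves out a change of 1.5-fold in either direction. The pooled SD of 0.093 was above that of 7.73% of the tested genes, whose median was 0.20. The genes *lim-6*, *unc-25* and *unc-47* mark GABA neurons including RIS, and not RIS alone. They gave log2 fold changes of -0.14, -0.06 and -0.19, and none of the 3 was called. For *lim-6* the genotypes did not overlap, against 1.41% of all tested genes in this direction. *flp-11*, the sleep neuropeptide gene, had -1.56 (SE 0.12, limma adjusted p = 0.00303).

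The relatives of these genes were mostly on the same side of 0. The list of 13 other *nlp* and *cnc* genes of the same peptide families was tested in full, and 0 were called in limma. Of these, 12 had a log2 fold change below 0, against 55.6% of all tested genes, with a median of -0.22. An unadjusted p under 0.05 was found for 4, against 2.4% of all tested genes in this direction, each with a lower signal in the mutant: *cnc-11*, *cnc-7*, *cnc-5* and *cnc-6*. *cnc-11*, next to *cnc-1*, has 5 probes and gave 0.99, 1.21, 1.07 and 0.50 in N2 replicates 1 to 4 and 0.13, 0.29, 0.59 and 0.28 in *aptf-1* replicates 1 to 4. N2 replicate 4 was the only wild-type array within the mutant range, in contrast to its place for *cnc-2* and *cnc-1*. The mutant differed from the wild type by -0.62 in *cnc-11* (SE 0.17, limma adjusted p = 0.9997). *cnc-5* had -0.32 (SE 0.12), the only one of the 13 with no overlap between the genotypes, against 1.41% of all tested genes in this direction. *cnc-3* alone lay above 0, at 0.06.

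The pathways that control the peptide genes held 0 calls as well. Over all tested genes 55.6% had a log2 fold change below 0. In the p38 pathway, *sta-2*, the STAT factor that acts on *nlp-29*, had no matched probe. Of the 17 genes tested there, 12 lay below 0 and 5 above, with a median of -0.08. *dcar-1*, the epidermal receptor that senses cuticle damage, had a log2 fold change of -0.16 (SE 0.08, limma adjusted p = 0.9997). Its genotypes did not overlap, which holds for 1.41% of all tested genes in this direction. The kinase genes *nsy-1*, *sek-1* and *pmk-1* had -0.14, 0.08 and -0.09. In the TGF-β pathway 6 of 8 genes lay below 0, with a median of -0.06. The ligand gene *dbl-1* had 0.15 and its receptor gene *sma-6* had -0.00014.

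The markers of epidermis lay on the other side of 0. Of the 9 listed, 8 were tested and all 8 had a log2 fold change above 0, and 0 were called. The values went from 0.03 for *ajm-1* to 0.48 for the dim adult collagen *col-19*, and the next highest was *dpy-7* at 0.27. *elt-3*, at 0.10, is in both this list and that of the p38 pathway. The mean of the 8 markers per array ranged from -0.38 to -0.03 in the mutant and from -0.49 to -0.34 in N2. The groups overlapped in this mean. It includes *col-19*, which was at -5.55 on *aptf-1* replicate 1 and between -7.39 and -6.73 on the other mutant arrays. The part of the epidermal share of the sample in the values of the peptide genes was not tested. Means of the neuronal markers ranged from 1.79 to 1.99 in the mutant and from 1.78 to 1.99 in N2, and those of body wall muscle from 3.33 to 3.46 and from 3.26 to 3.49. Of the 18 tested markers of neurons, muscle, pharynx, intestine and germ line 0 were called. For the neuronal marker *unc-104*, at 0.10, every mutant array lay above every wild-type array. The genotypes did not overlap in 2.17% of all tested genes in either direction.

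**Figure D3:**
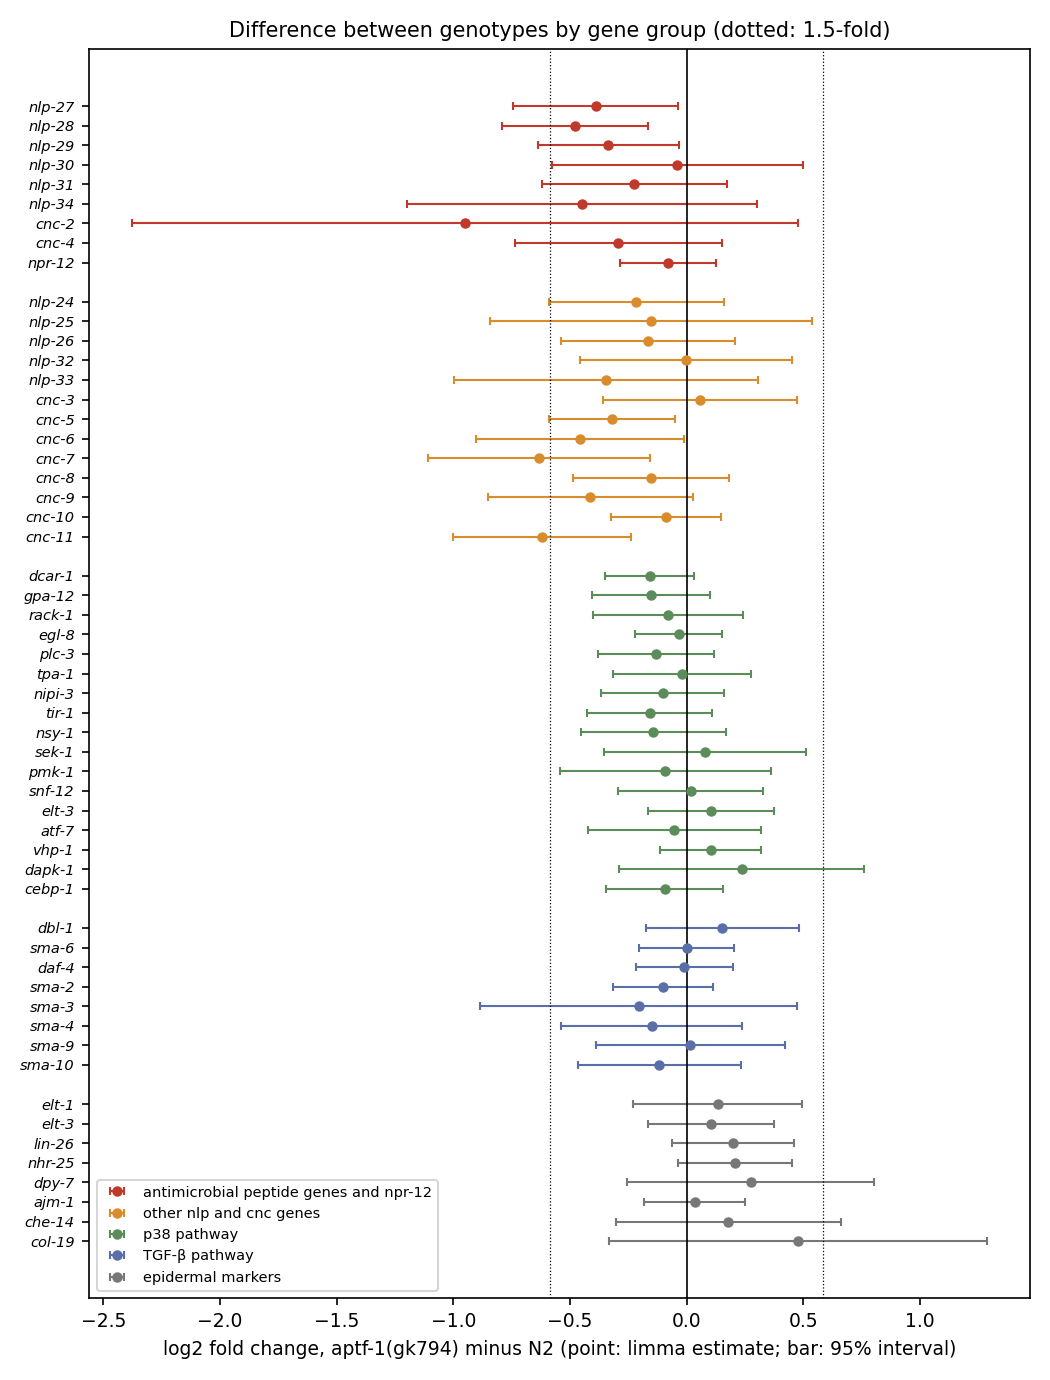
Log2 fold change of *aptf-1(gk794)* minus N2 (x axis) with its 95% interval from limma for the tested antimicrobial peptide genes and *npr-12*, the other *nlp* and *cnc* genes, the p38 and TGF-β pathways and the epidermal markers. All 9 genes of the first group and 12 of 13 of the second lie below 0, all 8 epidermal markers lie above 0, and no gene shown was called.

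The arrays lay on 2 slides, with replicates 1 and 2 of both genotypes on slide 1 and replicates 3 and 4 on slide 2. Counts are of the 8 tested genes with a value on every array, which leaves out *nlp-34*. On slide 2, all 8 had a lower mean in the mutant, and on slide 1 the count was 4 of 8. Over all tested genes the shares were 51.4% and 57.4%. The difference for *nlp-28* was -0.29 on slide 1 and -0.67 on slide 2, and for *nlp-29* it was -0.25 and -0.42. These genes were lower in the mutant on both slides, as were *nlp-27* with -0.12 and -0.66 and *cnc-4* with -0.13 and -0.46. The direction turned between the slides for *nlp-31* (0.13 and -0.57), *nlp-30* (0.14 and -0.22), *npr-12* (0.03 and -0.19) and *cnc-2* (0.51 and -2.41). For *cnc-2* on slide 2, N2 replicate 4 was at -3.59 and the other arrays were between -6.99 and -5.44. In all 8 genes the difference was lower on slide 2 than on slide 1, against 47.1% of all tested genes. So it was in 10 of the 13 other *nlp* and *cnc* genes. Of those 13, 9 lay below 0 on slide 1 and 12 on slide 2. Each slide holds 2 arrays of each genotype and the genes share these arrays, so the genes are not separate observations. Whether the slides differ was not tested.

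Within the genotypes the *nlp* genes of the cluster tended to be high or low on the same arrays. *aptf-1* replicate 3 had the lowest value of its genotype for *nlp-27*, *nlp-28*, *nlp-29*, *nlp-30* and *nlp-31*. N2 replicate 3 had the highest of its genotype for all of these but *nlp-29*, for which N2 replicate 1 was the highest. As deviations from the genotype means over the 8 arrays, the 10 pairs among these 5 genes all had a Pearson correlation above 0, from 0.20 to 0.87 with a median of 0.56. The pair *nlp-27* and *nlp-28* had the highest (Spearman's rho 0.95), and *nlp-30* with *nlp-31* the lowest (rho 0.26). The 10 pairs of an *nlp* and a *cnc* gene had a median of 0.13. *npr-12* had 0.76 with *nlp-31*, 0.76 with *cnc-2*, 0.49 with *nlp-27*, 0.45 with *nlp-28* and 0.21 with *cnc-4*, but -0.11 with *nlp-29* and -0.16 with *nlp-30*. The points share the arrays, and related copies may share signal, so these values describe the 8 arrays only. Over 16931 other genes the median correlation with *nlp-29* was 0.07. Whether other neighbouring genes reach values like those of the cluster was not tested.

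**Figure D4:**
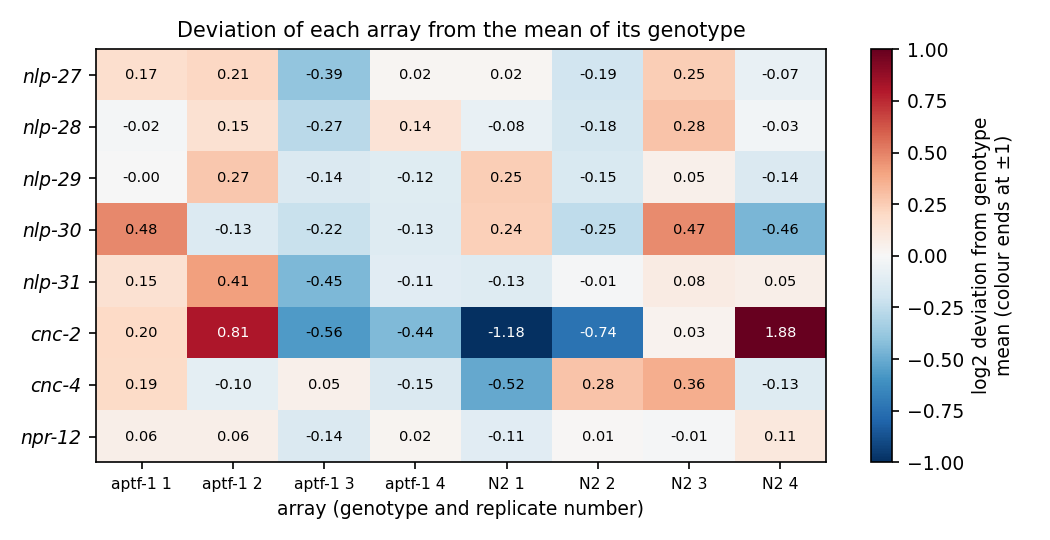
Deviation of each array (x axis) from the mean of its genotype, in log2 units, for the 8 tested genes with a value on every array (rows). Red is above and blue below the mean, and colours end at 1 unit. *aptf-1* replicate 3 is below the mean for the 5 *nlp* genes, and the highest deviation, 1.88, is that of N2 replicate 4 for *cnc-2*.

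Among 16931 other genes, those whose deviations over the 8 arrays were most like *nlp-29* were *srsx-18*, *srg-17*, *snrp-40.2*, *C50B6.13* and *nspb-5*, with Pearson correlations from 0.96 to 0.97 and a median over all genes of 0.07. None of the *nlp* or *cnc* genes was among them. For *cnc-2* they were *F52B5.2*, *pugs-4*, *fbxa-124*, *Y59E1B.1* and *mdt-1.2* (0.96 to 0.98). For *npr-12* they were *W09C3.4*, *tag-267*, *gpa-1*, *bath-13* and *crn-3* (0.98 to 0.99). Each list holds the highest of 16931 correlations over 8 arrays, and most of the genes have 1 tested probe. How high the top values of such a search come by chance was not tested, so the lists are a description.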

How the data were processed

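For each of the 8 arrays the authors deposited the scanner file of Agilent Feature Extraction 10.7.3.1, with a background-corrected intensity per spot, and a series table of log2 values whose normalization is not stated. The columns of that table have medians of 8.58 and rank the probes in the same order as the scanner files (Spearman's rho of 1), and they served as an alternative. Control spots (1417 of 45220 per array) and 62 to 188 outlier spots per array were left out. Log2 intensities were scaled to the array's 75th percentile and spots of a probe were averaged. Probes with a value in both genotypes that were marked well above background on 4 or more arrays entered limma 3.58.1 in R 4.3.3 (*aptf-1* minus N2). Gene values are means over tested probes, each centred on its own mean so that a missing spot did not shift the gene. Of 43603 probes, 34266 were matched to a gene of the WBcel235 table, read for names and gene order alone because the array was designed on an older build.

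The study's methods state the fold threshold of 1.5, name a t-test among the tests used (not for the arrays), and call the samples biological. For the rest of the array analysis they refer to an earlier publication, whose settings are not given in the sources used here. The study's supplement gives a p-value and an FDR for each probe it lists. Larval arrays of the study were not analysed here. The named genes are the 10 members, the genes of lists of relatives, pathways and markers (those called and a few more per list, by role), and the 5 genes most like *nlp-29*, *cnc-2* and *npr-12*. Members and lists were chosen with earlier results of these data known. On simulated data with the spread of 35278 probes, 50 probes each were set to change 1.5-, 2-, 3- and 4-fold. The fit found 2% of them at 1.5-fold, 60% at 2-fold, 72% at 3-fold and 92% at 4-fold, and called 11 unchanged probes. The shares depend on how many probes change and may be lower in the data, where 18 probes were called. Alternatives were other scalings, normexp on median spot intensities (offset 50), other filters and thresholds, outlier spots kept, array weights, the methods' t-test, slide or replicate number as a block, the deposited table and leaving out each array.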

Additional observations from a re-analysis of the deposited data

Results flagged for a closer look

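In 45 groups of 4 arrays (the antimicrobial peptide genes, *npr-12* and the related *nlp* and *cnc* genes, each genotype apart), 4 had 1 array far from the others, judged by its gap to the nearest array against the range of the group. Chance flags about 1 group in 20. *cnc-1* was at -6.23 on N2 replicate 4, with the other N2 arrays between -10.15 and -9.53. *nlp-30* was at 0.99 on *aptf-1* replicate 1, with the other mutant arrays between 0.28 and 0.38. *cnc-5* was at -4.40 on *aptf-1* replicate 3, with the others between -4.07 and -4.01. *cnc-8* was at 3.35 on *aptf-1* replicate 2, with the others between 2.76 and 2.83. *cnc-2*, also high on N2 replicate 4, had wild-type arrays too widely spread for such a gap.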

How the results depend on the processing

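Under each alternative the 9 tested genes stayed uncalled, as did their probes, except that a t-test without adjustment (the methods' t-test, which they do not name for the arrays) called 3 of the 30 probes. Over all probes the 18 calls became 39 when arrays were weighted, 11 when slide was a block, 176 and 3 with this t-test without and with adjustment, 8 at an adjusted p under 0.01, and 4 to 14 with 1 array left out (4 without N2 replicate 3, 5 without N2 replicate 2 and 6 to 9 without a mutant array). Directions held under all alternatives for 7 of the 9 genes. The log2 fold change of *nlp-30* ranged from -0.20 to 0.12 with 1 array left out and was above 0 without N2 replicate 1 or 3 or *aptf-1* replicate 2, 3 or 4. That of *nlp-34* ranged from -0.92 to 0.025. Of the 9 tested genes 8 to 9, and of the 13 relatives 11 to 13, lay below 0 over the alternatives that change values, counts that were added after the data were seen. Same-numbered samples of both genotypes had correlations of 0.39, 0.22, -0.10 and 0.08 in their deviations from the group means. Between different numbers the highest was 0.24, below that of replicate 1. The numbers were not taken as pairs in the main fit, and samples of the same number also shared a slide. In the replicate block fit 6 probes passed over all and 0 among the 30. *cnc-2*, whose probes are dim, went from -0.95 to -0.48 with normexp, and the cause was not tested.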
